A study of Mus musculus with 38 samples.

Results

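The 10 genes described here are mouse interferon-inducible GTPases of 2 families, the immunity-related GTPases (Iigp1, Tgtp1, Ifi47, Irgm1 and Igtp) and the guanylate-binding proteins (Gbp2b, Gbp2, Gbp3, Gbp4 and Gbp6). They were found by gene name, older names included, among the probes of the array that are not controls, and 13 probes matched the 10 members of 28785 gene names in all. Tumors arose from focal hyperplasias of MMTV-PyMT;actin-GFP mice, transplanted into mammary fat pads of FVB/n mice, and GFP-positive cells were sorted from every tumor or lung before RNA was taken. The MMTV promoter drives the polyoma middle T oncogene in the mammary epithelium and other organs, and the actin promoter drives GFP in all donor cells, so the sort marks donor origin and not an epithelial cell as such. Each sample (Cy5) was hybridized with a Universal mouse reference (Cy3) on a two-color Agilent array, and every level below is a log2 ratio of sample to that reference. In the chemotherapy experiment, 6 untreated tumors were compared with 6 residual and 4 relapsed tumors of mice given docetaxel, doxorubicin and cyclophosphamide (TAC) from 2 months after transplantation. Residual tumors, labelled as regressed, were collected 10 days after dose 1, and relapsed tumors, labelled as resistant, 10 days after dose 4. In the progression experiment, 5 adenomas came from 5-week outgrowths and 6 carcinomas from 18-week outgrowths. The other progression groups were 6 samples of disseminated cells from lungs of mice with 18-week outgrowths, lungs of several mice being pooled for a sample, and 5 samples of lung metastases collected after removal of the 18-week tumors. RNA of the progression samples only was amplified in 2 rounds, so levels are not compared between the experiments. The labels do not say whether replicates within a group stem from separate hyperplasias, and p-values measure only the spread between these samples.

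Interferon-inducible GTPases are induced above all by interferon gamma, and they act inside the cell against vacuolar pathogens. The effector immunity-related GTPases load onto vacuole membranes and damage them, the regulatory Irgm proteins hold the effectors inactive on the cell's own membranes, and guanylate-binding proteins coat vacuoles and bacteria and promote inflammasome activation. In tumors these genes are widely read as a mark of interferon exposure, whichever cell makes the interferon.

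Where a gene had several probes, the brightest over the experiment stood for it. On build mm7, the coordinates in the array files, those probes lie at chr3:142511872-142511931 for Gbp2b, chr3:142530694-142530753 for Gbp2, chr3:142466047-142466106 for Gbp3, chr5:104286256-104286315 for Gbp4 and chr5:104494632-104494692 for Gbp6. For 4 of the immunity-related GTPases they lie at chr11:48822320-48822379 for Irgm1, chr11:48943424-48943483 for Tgtp1, chr11:49053428-49053487 for Ifi47 and chr11:58288970-58289029 for Igtp. The array files give no exon, intron or UTR for these positions. Tgtp1 has a near-identical copy, Tgtp2, and Gbp6 a close relative, Gbp10, so the signal of these probes may be shared. The members' probes were well above background in the sample channel in 155 of 160 values of the chemotherapy experiment and 217 of 220 of the progression experiment, and none was saturated. Only Gbp2b and Gbp4 had values that were not.

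Promoter sequences are shown for the members that hold a motif known from interferon signalling, because the members moved together in the results that follow. RefSeq promoters on build GRCm38.p6 (300 bases, from 250 before to 50 after the gene start) were at hand for 7 of the 10 members: Gbp2b, Gbp2, Gbp3, Igtp, Irgm1, Tgtp1 and Ifi47. The 2 motifs searched on both strands were GAAANNGAA, the core of the interferon-stimulated response element, and TTCNNNGAA, the core of the gamma-activated site, which reads the same on both strands. GAAANNGAA was found in 6 of the 7, all but Ifi47, and in 8.56% of the 32851 promoters of the table. A member counted if any of its starts held a match, whereas the share is over single promoters. Gbp3 had 2 starts, and the second held no match of either motif. TTCNNNGAA was found in Igtp and Tgtp1 and in 8.3% of all promoters. The 150 bases before the start are printed 5′ to 3′ on the strand of the gene, with bases of a motif match in capitals:
Tgtp1: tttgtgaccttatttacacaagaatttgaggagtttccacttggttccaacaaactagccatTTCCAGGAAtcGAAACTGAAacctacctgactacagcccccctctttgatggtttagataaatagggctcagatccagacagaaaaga
Igtp: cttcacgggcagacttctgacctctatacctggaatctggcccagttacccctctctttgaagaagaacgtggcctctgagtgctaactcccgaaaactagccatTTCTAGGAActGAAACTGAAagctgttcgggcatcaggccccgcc
Irgm1: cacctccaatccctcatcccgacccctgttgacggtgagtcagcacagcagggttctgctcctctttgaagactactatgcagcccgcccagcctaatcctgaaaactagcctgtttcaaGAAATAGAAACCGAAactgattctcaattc
Gbp2: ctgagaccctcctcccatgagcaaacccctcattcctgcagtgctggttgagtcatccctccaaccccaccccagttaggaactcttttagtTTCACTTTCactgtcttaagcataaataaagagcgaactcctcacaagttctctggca
Gbp3: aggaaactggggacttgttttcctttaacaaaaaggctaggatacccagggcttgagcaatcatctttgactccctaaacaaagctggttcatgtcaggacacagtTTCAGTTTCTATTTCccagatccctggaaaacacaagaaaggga
Gbp2b: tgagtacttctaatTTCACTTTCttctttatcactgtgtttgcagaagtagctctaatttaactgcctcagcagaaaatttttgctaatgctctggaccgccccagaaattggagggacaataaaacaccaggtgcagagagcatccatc
These windows are chr11:48992247-48992396 (minus strand) for Tgtp1, chr11:58199406-58199555 (plus strand) for Igtp and chr11:48871421-48871570 (minus strand) for Irgm1. For the guanylate-binding proteins they are chr3:142620513-142620662 for Gbp2, chr3:142559894-142560043 for the first of 2 starts of Gbp3 and chr3:142594697-142594846 for Gbp2b, all on the plus strand. In both Igtp and Tgtp1 the TTCNNNGAA match was followed by a GAAANNGAA match after 2 bases, and in Irgm1 and Gbp3 a pair of GAAANNGAA matches overlapped. A match is a string of letters and was not tested for binding.

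The comparison of residual with untreated tumors asks which genes differ in the cells left after the first dose of chemotherapy. All 10 members had a higher mean in residual than in untreated tumors, by log2 differences of 1.17 to 2.33 with a median of 1.75 (median over all genes -0.00). Of the 10, 7 rose at an adjusted p below 0.05 and at least 2-fold in limma's moderated test (Benjamini-Hochberg adjustment over all 28785 genes), whereas 0.0903% of all genes were called higher. In relapsed tumors all 10 were lower than in residual tumors, by 1.71 to 3.31, and 10 of 10 fell by the same test, against 0.208% of all genes. Doses were given weeks apart, so relapsed tumors were also older after transplantation than residual tumors. Tumor age and dose number cannot be told apart from relapse in this comparison, and the labels give no age for untreated tumors. No member was called between relapsed and untreated tumors, where 0.0104% of all genes were called in either direction. The study itself names Gbp1, Gbp3, Gbp4, Igtp, Tgtp and Ifi47 from these samples, so the direction of these members here is not independent evidence. By RT-PCR on other sets of sorted samples, the study also reports Tgtp1, Gbp3 and Gbp4 as raised in residual tumors. Those were set against adenomas, carcinomas, disseminated cells and metastases, and Gbp4 was reported as raised in adenomas too. The array files name the Gbp2b probe Gbp1, the Gbp3 probe Gbp4 and the Gbp4 probe Mpa2. Which members the study's Gbp3 and Gbp4 stand for is therefore not certain. The study's n is 5 per group, whereas 6, 6 and 4 arrays carried these labels. Sorted cells were profiled in bulk, and fewer cells of a type cannot be told apart from less RNA per cell.

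The effectors Iigp1, Tgtp1 and Ifi47 coat and disrupt the vacuoles of intracellular parasites. Iigp1 (Irga6) ranged from 4.31 to 6.31 in untreated tumors with a median of 4.87, and from 6.51 to 7.17 in residual tumors with a median of 6.88. In relapsed tumors 1 to 4 it stood at 3.03, 4.39, 4.17 and 4.63. Every residual tumor thus lay above every other tumor, and untreated replicate 6 came closest. Iigp1 rose 3.51-fold in residual tumors (log2 difference 1.81, SE 0.31, adjusted p = 0.0308) and fell 6.98-fold in relapsed tumors (difference -2.80, SE 0.35, adjusted p = 0.00132). Ifi47 (Irgd) ranged from 2.33 to 3.82 (median 2.92) in untreated and from 4.08 to 4.74 (median 4.36) in residual tumors. Its relapsed values were 1.28, 1.87, 2.41 and 2.80. The residual tumors again did not overlap with either group, and Ifi47 rose 2.80-fold (adjusted p = 0.031) and fell 4.99-fold (adjusted p = 0.00132). Tgtp1 (Irgb6) spread most among untreated tumors, from 0.34 to 3.35 with a median of 1.62, against 3.02 to 4.27 (median 4.0) in residual tumors. Untreated replicate 6 lay inside the residual range, and the difference of 2.25 (95% interval 1.30 to 3.20) did not pass the test (adjusted p = 0.0591). Relapsed tumors, at -0.19, 0.14, 1.0 and 1.30, lay below all residual tumors, and Tgtp1 fell 9.89-fold (adjusted p = 0.00587). A second Tgtp1 probe moved less, by 0.87 (adjusted p = 0.0738 over all probes) and -1.11 (adjusted p = 0.0248).

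Irgm1 and Igtp (Irgm3), the regulators that keep the effectors off the cell's own membranes, moved with them. Irgm1 ranged from 1.33 to 2.33 (median 1.61) in untreated tumors and from 2.59 to 3.13 (median 2.84) in residual tumors, and stood at 0.15, 1.35, 1.21 and 1.53 in relapsed tumors. It rose 2.24-fold (difference 1.17, SE 0.21, adjusted p = 0.0317) and fell 3.44-fold (adjusted p = 0.00149), with no overlap of residual tumors and the rest. A second Irgm1 probe gave 1.20 and -1.87, and the remaining probe, matched by name alone, was well above background on 1 of 38 arrays and is not read here. Igtp ranged from 2.45 to 4.61 (median 3.15) in untreated and from 4.5 to 6.05 (median 4.93) in residual tumors, where untreated replicate 6 overlapped with the lowest residual tumor. Its difference of 1.80 (95% interval 1.01 to 2.59) did not pass the test (adjusted p = 0.0721). In relapsed tumors, at 1.36, 2.30, 2.74 and 3.36, Igtp fell 6.06-fold from the residual level (adjusted p = 0.00874).

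Among the guanylate-binding proteins, 4 of 5 rose in residual tumors and all 5 fell in relapsed tumors. Gbp2b is the mouse GTPase formerly named Gbp1. It ranged from -0.61 to 0.21 (median -0.04) in untreated and from 0.98 to 1.83 (median 1.38) in residual tumors, and its relapsed values were -0.73, -0.55, -0.54 and -0.45. The residual tumors stood apart from both, and Gbp2b rose 2.91-fold (difference 1.54, SE 0.16, adjusted p = 0.000925) and fell 4.03-fold (difference -2.01, SE 0.17, adjusted p = 0.000104). Gbp6 ranged from 1.58 to 3.15 (median 1.95) in untreated and from 3.91 to 5.20 (median 4.39) in residual tumors, against 0.76, 1.06, 1.98 and 2.11 in relapsed tumors. It had the largest residual difference of the 10, a 5.02-fold rise (difference 2.33, SE 0.29, adjusted p = 0.00388), and fell 7.63-fold (adjusted p = 0.000763). Gbp4 ranged from -0.84 to 1.04 (median -0.34) in untreated and from 1.41 to 2.40 (median 1.94) in residual tumors, and stood at -0.70, -0.74, 0.39 and -0.11 in relapsed tumors. Untreated replicates 2 and 5 and relapsed replicates 1 and 2 were not well above background for Gbp4, so its 3.95-fold rise (adjusted p = 0.0174) and 4.61-fold fall (adjusted p = 0.00813) rest in part on dim spots. With the scanner's processed signals the differences of Gbp4 were 2.71, no longer called, and -3.40, and those of Gbp2b 2.26 and -3.17.

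Gbp3 ranged from 2.19 to 3.61 (median 2.70) in untreated and from 3.82 to 5.38 (median 4.55) in residual tumors. Its relapsed values were 1.46, 3.13, 3.10 and 3.02, so that replicate 1 lay far below the rest. Gbp3 rose 3.25-fold (adjusted p = 0.0388) and fell 3.51-fold (adjusted p = 0.042), the weakest of the 10 falls by adjusted p. Gbp2, which is needed for control of Toxoplasma in mice, ranged from 1.62 to 3.55 (median 2.72) in untreated and from 3.74 to 4.35 (median 3.87) in residual tumors. The groups did not overlap, but the difference of 1.36 (95% interval 0.80 to 1.91) missed the threshold (adjusted p = 0.0509). In relapsed tumors Gbp2 stood at 1.64, 2.13, 2.74 and 2.61 and fell 3.27-fold (adjusted p = 0.0165).

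**Figure D1:**
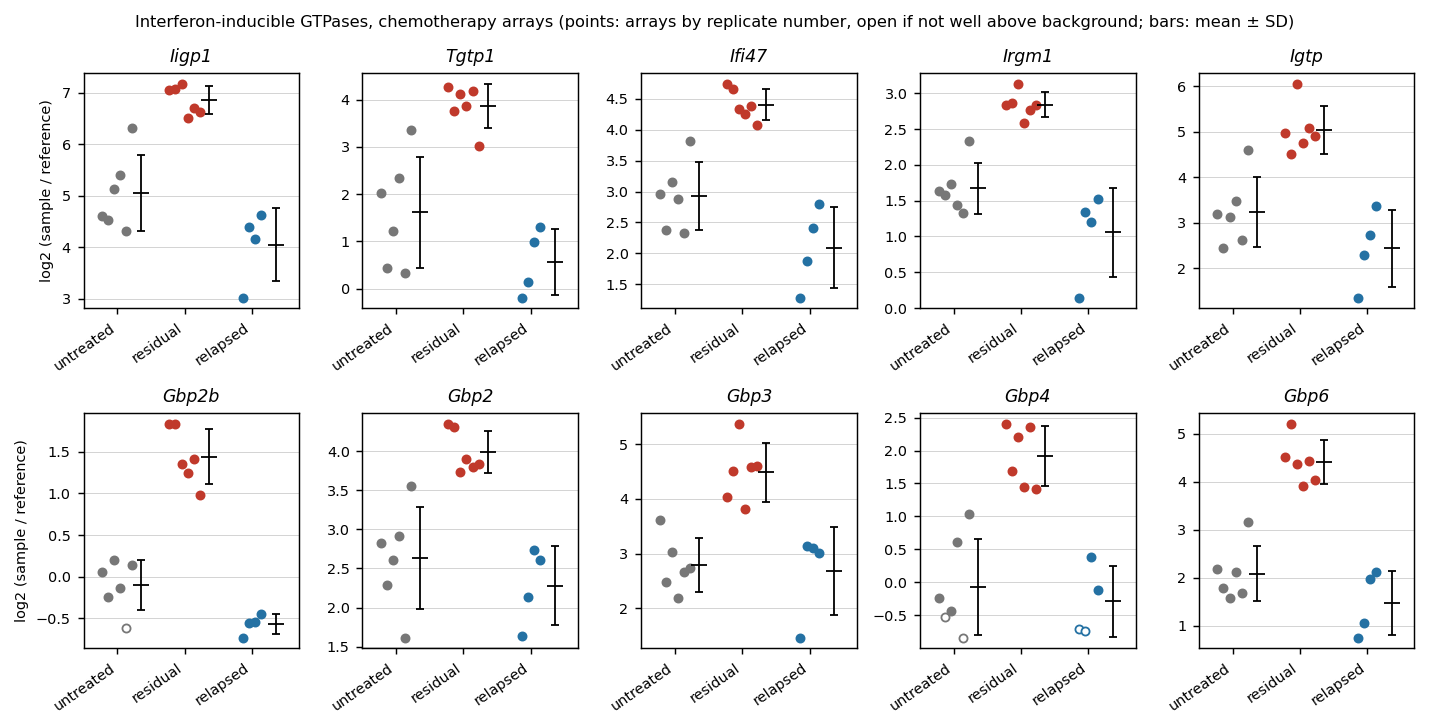
Log2 ratio of sample to reference (y axis, its own scale in each panel) for the 10 members in 6 untreated (grey), 6 residual (red) and 4 relapsed tumors (blue); points are arrays, open where not well above background, and bars give the mean ± SD. Residual tumors lie above all relapsed tumors in every panel, and only for Tgtp1 and Igtp does an untreated tumor reach the residual range.

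Counted by overlap, residual tumors lay above all untreated tumors for 8 of 10 members and above all relapsed tumors for 10 of 10. Of all genes, 0.775% and 1.68% had no overlap in either direction in these comparisons. The order of group means was residual, untreated, relapsed for all 10. Relapsed means were below untreated means for each member, by 0.11 for Gbp3 (95% interval of the difference -0.86 to 0.64, adjusted p = 0.988) to 1.06 for Tgtp1 (-2.12 to 0.00, adjusted p = 0.657), and all 10 pairs of groups overlapped. For 4 members, Iigp1, Ifi47, Irgm1 and Gbp2b, the unadjusted p of this difference was below 0.05, with adjusted p of 0.437 to 0.474, and so it was for 2197 of all 28785 genes. Untreated replicate 6 had the highest untreated value for 8 of the 10 members and relapsed replicate 1 the lowest relapsed value for 9, so members moved together among tumors of 1 group too.

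The number of calls in residual tumors changed with the processing, while no member's difference changed sign in that comparison. The rise was called for 3 members with a normexp offset of 0, for 2 with the scanner's processed signals and for 1 (Gbp6) with slide as a fixed block, and leaving out any 1 of untreated replicates 1 to 5 or residual replicates 1 to 5 gave 2 to 4 calls, while Gbp2b and Gbp6 were called in each of these. On the slide that held both groups (2 residual, 1 untreated) all 10 members were higher in residual tumors, by 0.66 to 2.68, and on the slide with 1 residual and 2 relapsed tumors all 10 were lower in relapsed tumors, by -3.13 to -1.63. Without relapsed replicate 1 the fall was called for 6 of the 10 members.

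The wider interferon program of these tumors was described with lists written from general knowledge. Of the other guanylate-binding proteins, 4 of 6 were measured, and Gbp8 (1.64, adjusted p = 0.0123) and Gbp9 (1.65, adjusted p = 0.0388) rose in residual tumors, while all 4 (Gbp5, Gbp7, Gbp8 and Gbp9) fell in relapsed tumors, by log2 differences of -2.25 to -1.41. Of the other immunity-related GTPases, 3 of 10 were measured, and Irgm2, a further regulator, fell in relapsed tumors (-1.83, adjusted p = 0.00621). Among 17 interferon ligands, receptors and transcription factors, 0 were called in residual tumors, where 0.0938% of all genes were called in either direction. Irf1, a transcription factor that interferons induce, fell in relapsed tumors (-1.64, adjusted p = 0.00371), and its residual difference was 0.90 (adjusted p = 0.124). The receptor genes Ifngr1 and Ifngr2 differed by at most 0.40 in size between any of these groups.

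Ifng itself, the ligand, ranged from -0.08 to 2.27 in residual tumors and was well above background in 5 of 6 of them, in 3 of 6 untreated and in 0 of 4 relapsed tumors. Its residual difference was 0.69 (adjusted p = 0.519). Of 15 measured interferon gamma targets outside the GTPases, 1 rose in residual tumors, the ubiquitin-like modifier Ubd (2.48, adjusted p = 0.0275), and 6 fell in relapsed tumors: Ubd (-4.14), the T cell chemokine Cxcl9 (-2.84), the immunoproteasome subunits Psmb9 (-1.85) and Psmb10 (-1.32), the peptide transporter Tap1 (-1.49) and the MHC light chain B2m (-1.64). None of 10 genes of the ATG8 conjugation machinery that guides these GTPases to vacuoles, and none of 8 inflammasome genes, was called in the 3 comparisons. Of all genes, only 0.0104% to 0.212% were called in either direction in them. Of the inflammasome genes, 7 had lower means in relapsed than in residual tumors and 1 a higher mean (median difference -0.50).

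Markers of other cells were examined beside these results. All 10 mammary epithelial markers were well above background on each chemotherapy array, with list means of 4.32 to 5.07. The mean of 12 T and NK cell markers was -0.38 to -0.09 in untreated, -0.37 to 0.07 in residual and -0.45 to -0.27 in relapsed tumors. For 12 macrophage markers it was -0.13 to 2.41, -0.30 to 1.82 and -0.54 to 0.98 in the same order. No gene of any marker list was called in the 3 comparisons. Few genes were called at all: 0.0938% for residual minus untreated, 0.212% for relapsed minus residual and 0.0104% for relapsed minus untreated. The absence of calls therefore says little about lists of this size. Of the macrophage markers, 10 were lower and 2 higher in residual than in untreated tumors (median -0.69). In relapsed against residual tumors 11 were lower and 1 higher (median -0.31). The part of other cells in the members' levels was not tested.

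The comparison of carcinomas with adenomas asks what changes as the transplanted lesion progresses. All 10 members fell in carcinomas, by log2 differences of -3.21 (Iigp1) to -1.66 (Gbp2b) with a median of -2.47, and 10 of 10 were called, against 2.14% of all genes called lower. For 9 of 10, all but Gbp6, every carcinoma lay below every adenoma, while 10.5% of all genes had no overlap in either direction. Adenomas and carcinomas lay on different slides scanned on different days, so slide and scan day cannot be told apart from stage in this comparison.

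Iigp1 stood at 6.49, 6.35, 6.40, 5.92 and 6.65 in adenomas 1 to 5 and ranged from 2.42 to 4.37 (median 2.84) in carcinomas, a 9.28-fold fall (difference -3.21, SE 0.56, adjusted p = 0.00156). Tgtp1 stood at 5.35, 4.30, 4.31, 4.66 and 5.31 in adenomas and at 0.77 to 2.63 (median 1.63) in carcinomas, an 8.84-fold fall (adjusted p = 0.00187). Ifi47 varied least among adenomas, at 5.53, 5.37, 5.62, 5.35 and 5.46, and fell 3.51-fold to 3.01 to 4.40 (median 3.65, adjusted p = 0.000654). No carcinoma reached the adenoma range for these effectors, and carcinoma 5 had the highest carcinoma value of all 3. Irgm1 had adenoma values of 2.27, 1.74, 1.33, 1.62 and 2.35 and carcinoma values of -1.74 to -0.00 (median -1.10), a 6.93-fold fall with the lowest adjusted p of the 10 (0.000329). Its second probe fell by 1.79 (adjusted p = 0.0363 over all probes). Igtp stood at 5.45, 4.5, 4.07, 4.40 and 5.6 in adenomas and at 1.0 to 3.64 (median 1.94) in carcinomas and fell 6.14-fold (adjusted p = 0.00626). The second Tgtp1 probe gave -0.43 (adjusted p = 0.0849), so the probes of Tgtp1 differ in the size of the change and in the call. With the mean of a gene's probes, Irgm1 fell by 1.62 and Tgtp1 by 1.79. The Irgm1 mean takes in the probe matched by name alone (-0.29), which was well above background on 1 of 38 arrays.

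The guanylate-binding proteins fell likewise. Gbp4 had adenoma values of 2.70, 1.23, 0.10, 2.26 and 3.03 and carcinoma values of -1.43 to -0.37 (median -1.37), a 7.92-fold fall (difference -2.99, SE 0.45, adjusted p = 0.000549), with carcinomas 1 and 2 not well above background. The size of this fall depends on how dim spots are treated, since the difference was -3.63 with a normexp offset of 0 and -4.78 with the scanner's processed signals. Gbp3 stood at 4.57, 3.65, 3.97, 3.82 and 5.06 in adenomas and at 0.85 to 3.13 (median 2.42) in carcinomas (4.20-fold, adjusted p = 0.00943). Gbp2 stood at 4.49, 4.15, 3.99, 4.22 and 4.37 in adenomas and at 1.95 to 3.07 (median 2.36) in carcinomas (3.55-fold, adjusted p = 0.00148). Neither gene had an adenoma within the carcinoma range. Gbp2b had adenoma values of 1.75, 0.49, 1.34, 0.84 and 1.74 and carcinoma values of -1.15 to 0.47 (median -0.62), so that adenoma 2 and carcinoma 6 nearly touched (3.15-fold, adjusted p = 0.0106). Gbp6 stood at 3.97, 4.17, 1.37, 3.64 and 4.28 in adenomas and at -0.22 to 2.52 (median 1.19) in carcinomas. Adenoma 3 lay inside the carcinoma range, and the 5.01-fold fall was near the threshold (adjusted p = 0.0453). Without adenoma 3 its difference was -2.92 in place of -2.32.

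Carcinoma 6 stood apart from its group over all genes (median correlation with its group 0.76, others 0.94 to 0.96) and had the highest macrophage marker mean of the carcinomas, 4.58 against at most 0.95. Without it all 10 members were still called. Leaving out single arrays gave 9 to 10 calls, Gbp6 being the member lost.

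**Figure D2:**
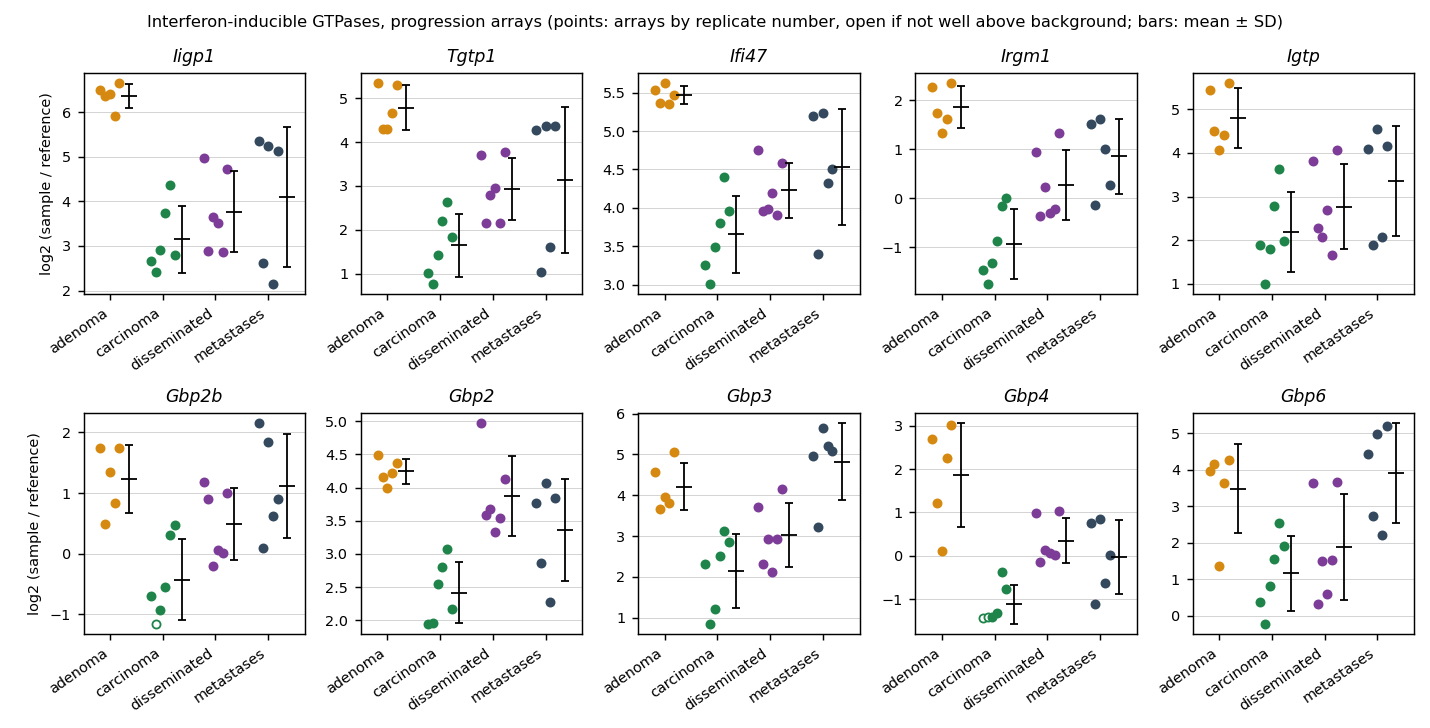
Log2 ratio of sample to reference (y axis, its own scale in each panel) for the 10 members in 5 adenomas (orange), 6 carcinomas (green), 6 samples of disseminated cells (purple) and 5 of metastases (dark blue); points are arrays, open where not well above background, and bars give the mean ± SD. Carcinomas lie below adenomas in every panel apart from adenoma 3 for Gbp6, and metastases 2 and 4 lie well below the other 3 for Iigp1, Tgtp1 and Igtp.

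Other interferon genes fell in carcinomas with the members. All 4 measured other guanylate-binding proteins fell, by -1.88 (Gbp5) to -1.16 (Gbp8), as did Irgm2 (-1.85, adjusted p = 0.00392). Ifng stood at 4.44, 1.35, 5.58, 5.54 and 4.12 in adenomas and at 0.20 to 1.62 in carcinomas and fell by 3.54 (SE 0.74, adjusted p = 0.00522), adenoma 2 overlapping with carcinoma 4. Stat2, a transcription factor of type I interferon signalling, fell by 1.86 (adjusted p = 0.00114), while Irf1 differed by -0.51 (adjusted p = 0.131). Of the 15 other interferon gamma targets 4 fell: Cxcl9 (-4.24), Ubd (-3.75), Psmb10 (-1.28) and Ciita, the activator of MHC class II genes (-2.08). Ifngr1 (-0.60, adjusted p = 0.446) and Ifngr2 (0.13, adjusted p = 0.717) were not called. The mean of the T and NK cell markers was 0.44 to 1.19 in adenomas and 0.02 to 0.36 in carcinomas, and 3 of 12 markers fell, Cd3d (-2.81), Cd3g (-1.39) and the cytotoxic granule gene Nkg7 (-3.44). Lck (-1.29, adjusted p = 0.0624) and Prf1 (-0.51, adjusted p = 0.479) had lower means but were not called, and every carcinoma lay below every adenoma for Lck. The list did not move as a whole: Cd3e (0.26), Cd4 (0.30), Cd8b1 (0.17) and Klrb1c (0.30) had higher means in carcinomas, none of them called, and Cd8a (-0.11), Gzma (-0.08) and Gzmb (-0.21) differed little. Ifng is itself a product of T and NK cells. The sort on donor GFP is meant to leave host cells out, and the part of such cells in the members' fall was not tested. Of 10 ATG8 conjugation genes, 2 rose, Gabarapl1 (1.26) and Gabarapl2 (1.35), and of 8 inflammasome genes none was called. Of all genes, 3.3% were called in either direction in this comparison.

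**Figure D3:**
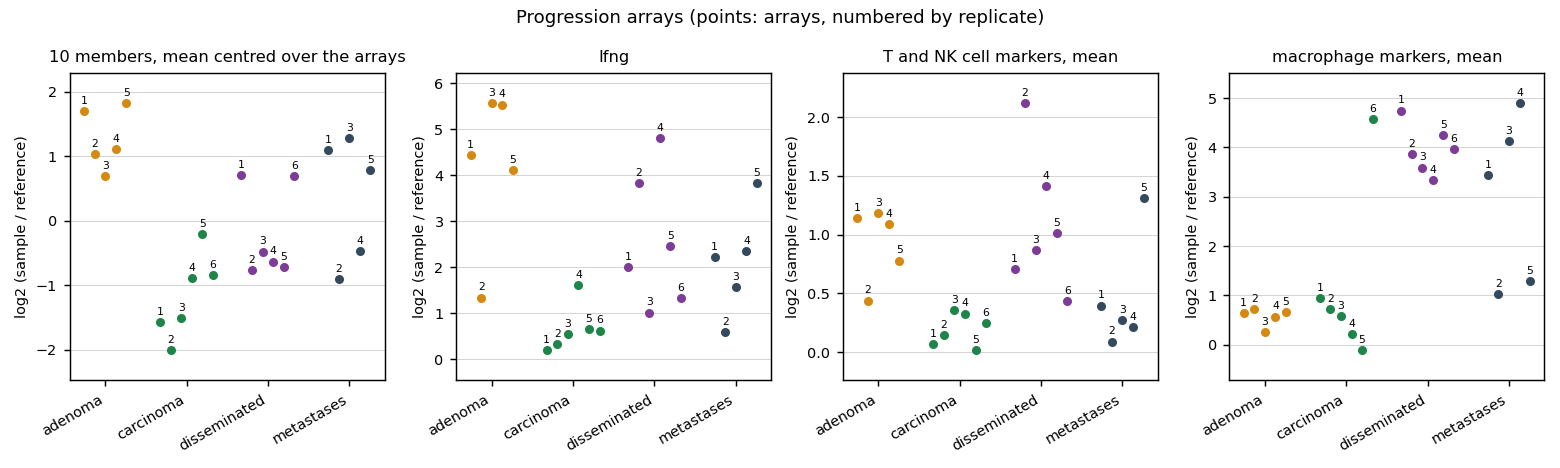
Mean of the 10 members after centring each over the progression arrays, Ifng, and the mean of 12 T and NK cell and of 12 macrophage markers (y axes, log2 ratio of sample to reference) in adenomas, carcinomas, disseminated cells and metastases; points are arrays numbered by replicate. Adenomas lie above carcinomas for the members and for the T and NK cell markers, and the macrophage mean is at least 3.34 in disseminated cells and 4.58 in carcinoma 6.

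Disseminated cells and metastases lay between adenomas and carcinomas for most members. Compared with adenomas, 6 of 10 members fell in disseminated cells (5.82% of all genes called lower) and 3 of 10 in metastases (8.47%). Compared with carcinomas, 3 of 10 rose in disseminated cells (5.5% of all genes called higher) and 4 of 10 in metastases (4.75%), and metastases exceeded disseminated cells for 1, Gbp3 (3.43%). These comparisons share their groups and are not independent of one another. Adenomas and disseminated cells were scanned on the same slides and day, and carcinomas and metastases on other slides on another day. Slide and scan day therefore cannot be told apart from the group in disseminated cells against carcinomas, metastases against adenomas and metastases against disseminated cells, nor in the order of the 4 group means. The order of group means was adenoma, metastases, disseminated, carcinoma for 6 members (Gbp2b, Igtp, Iigp1, Irgm1, Tgtp1 and Ifi47) and adenoma, disseminated, metastases, carcinoma for Gbp2 and Gbp4. For Gbp3 and Gbp6 metastases had the highest mean, above adenomas by 0.61 (95% interval -0.42 to 1.65, adjusted p = 0.388) and 0.43 (-1.18 to 2.03, adjusted p = 0.724). The carcinoma mean was the lowest of the 4 for all 10.

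All 3 effectors stayed below the adenoma level in disseminated cells. Iigp1 ranged from 2.87 to 4.97 (median 3.58) and fell 6.03-fold (adjusted p = 0.00422), Tgtp1 ranged from 2.16 to 3.77 (median 2.87) and fell 3.63-fold (adjusted p = 0.0247), and Ifi47 ranged from 3.91 to 4.75 (median 4.09) and fell 2.36-fold (adjusted p = 0.00534). None of the 3 overlapped with adenomas, and 9.31% of all genes had no overlap in either direction in this comparison. In metastases 1 to 5, Iigp1 stood at 5.36, 2.62, 5.24, 2.16 and 5.12 and Tgtp1 at 4.27, 1.04, 4.37, 1.61 and 4.36, with replicates 2 and 4 at carcinoma levels. The other 3 were higher, close to the lowest adenoma for Tgtp1 (4.30) but below it for Iigp1 (5.92). Every metastasis sample thus lay below every adenoma for Iigp1, and 21.5% of all genes had no overlap in either direction in this comparison. The falls from adenomas were 4.80-fold for Iigp1 (adjusted p = 0.00717) and 3.15-fold for Tgtp1 (adjusted p = 0.0413). Ifi47, at 5.19, 3.40, 5.24, 4.33 and 4.5, was lower than in adenomas by less than 2-fold (difference -0.94, adjusted p = 0.0224). Against carcinomas no effector was called in either lung group, with differences of 0.57 to 1.49.

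Of the regulators, Irgm1 rose above carcinomas in both lung groups and Igtp in neither. Irgm1 ranged from -0.36 to 1.32 (median 0.01) in disseminated cells and stood at 1.51, -0.13, 1.61, 1.0 and 0.28 in metastases. The rises over carcinomas were 2.30-fold (adjusted p = 0.0221) and 3.44-fold (adjusted p = 0.0035), and Irgm1 fell 3.01-fold below adenomas in disseminated cells (adjusted p = 0.00805). Its second probe had the same direction against carcinomas, at 0.82 (adjusted p = 0.258) and 2.33 (adjusted p = 0.00506), but was higher in metastases than in adenomas by 0.54 (adjusted p = 0.516) where the first was lower by 1.01 (adjusted p = 0.0706). Igtp ranged from 1.66 to 4.07 (median 2.49) in disseminated cells, a 4.11-fold fall from adenomas (adjusted p = 0.0157). In metastases it stood at 4.10, 1.89, 4.56, 2.08 and 4.16, with the same 2 low samples as the effectors.

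Gbp2 and Gbp4 were the guanylate-binding proteins that rose in disseminated cells over carcinomas. Gbp2 ranged from 3.33 to 4.97 (median 3.64) and Gbp4 from -0.15 to 1.04 (median 0.11), both above every carcinoma. Their rises were 2.75-fold (adjusted p = 0.00185) and 2.77-fold (adjusted p = 0.0164). Of all genes, 7.19% had no overlap in either direction in this comparison. Against adenomas Gbp2 differed by -0.37 (95% interval -1.03 to 0.29, adjusted p = 0.439), while Gbp4 fell 2.86-fold (adjusted p = 0.0226). In metastases Gbp2 stood at 3.77, 2.86, 4.07, 2.27 and 3.84 and Gbp4 at 0.76, -1.11, 0.85, -0.62 and 0.01, and Gbp4 fell 3.70-fold below adenomas (adjusted p = 0.00556).

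Gbp3, Gbp6 and Gbp2b were those that rose in metastases over carcinomas. Gbp3 stood at 4.97, 3.21, 5.66, 5.22 and 5.08, above every carcinoma (13.6% of all genes had no overlap in either direction). It rose 6.43-fold (difference 2.68, adjusted p = 0.000869). It was also 3.48-fold higher than in disseminated cells (2.11 to 4.14, median 2.93, adjusted p = 0.0169). Gbp6 stood at 4.44, 2.72, 4.99, 2.20 and 5.20 and rose 6.74-fold over carcinomas (adjusted p = 0.0116), and Gbp2b at 2.15, 0.09, 1.84, 0.62 and 0.91 (2.92-fold, adjusted p = 0.00836). Metastases 4, low for Iigp1, Tgtp1, Igtp and Gbp6, was at 5.22 for Gbp3, so the members did not move as 1 block within this group.

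Within slides, metastases were higher than carcinomas for all 10 members on 2 slides, by 0.77 to 3.33 and by 1.46 to 4.42, and on the slide with metastases 2 and carcinomas 5 and 6 they were higher for 3 members and lower for 7 (-1.20 to 0.50). Leaving out metastases 2 gave 8 calls against carcinomas, and leaving out metastases 3 gave 7 calls against adenomas and 0 against disseminated cells, for which leaving out disseminated 1, disseminated 6 or metastases 4 gave 2. With Aquantile or no normalization between arrays, 3 members were called lower in disseminated cells than in adenomas. Disseminated cells were below adenomas for 10, 10 and 9 members on the 3 slides they shared. Disseminated 6 and metastases 4 stood apart from their groups over all genes (median correlations 0.71 and 0.78, others 0.78 to 0.85 and 0.85 to 0.89).

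The lung groups also differed in cell markers. The mean of the mammary epithelial markers, 3.20 to 3.80 in adenomas, was 0.67 to 3.78 in disseminated cells and 0.72 to 4.82 in metastases, the latter minimum being metastases 4. Macrophage markers averaged 3.34 to 4.75 in disseminated cells and 1.02 to 4.90 in metastases against 0.26 to 0.71 in adenomas, with 9 and 8 of 12 called higher. Against carcinomas 7 and 3 were called higher. Of all genes, 4.65% and 6.09% were called higher than in adenomas, and 5.5% and 4.75% higher than in carcinomas. Of 6 alveolar macrophage markers 6 and 5 were called higher than in adenomas, and of 7 endothelial markers 5 and 1. T and NK cell markers averaged 0.43 to 2.12 in disseminated cells and 0.09 to 1.31 in metastases, with 4 and 0 of 12 called higher than in carcinomas. Neutrophil markers averaged 3.66 to 6.17 in disseminated cells and 1.82 to 4.41 in metastases (2.01 to 2.39 in adenomas), and lung epithelial markers 2.43 to 4.24 and 2.10 to 3.52 (1.09 to 1.98 in adenomas). Macrophages express the members too. Host macrophages are not of donor origin, so the GFP sort is meant to leave them out, and the part of such cells in the lung values was not tested. In the same samples, the interferon gamma receptor genes rose in disseminated cells relative to adenomas, Ifngr1 by 1.40 (adjusted p = 0.0424) and Ifngr2 by 1.05 (adjusted p = 0.00214). Ifngr2 also had a higher mean in metastases (0.74) than in adenomas (-0.47), whereas Ifngr1 had similar means (0.14 and 0.17). Irf1 was higher in metastases than in carcinomas by 1.5 (adjusted p = 0.000182) and than in disseminated cells by 1.34 (adjusted p = 0.000638). Ifng ranged from 1.02 to 4.81 in disseminated cells and from 0.60 to 3.84 in metastases. Irgm2, as Gbp3, rose in metastases in both comparisons, by 1.83 over carcinomas and 1.28 over disseminated cells (adjusted p = 0.00207 and 0.0273).

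**Figure D4:**
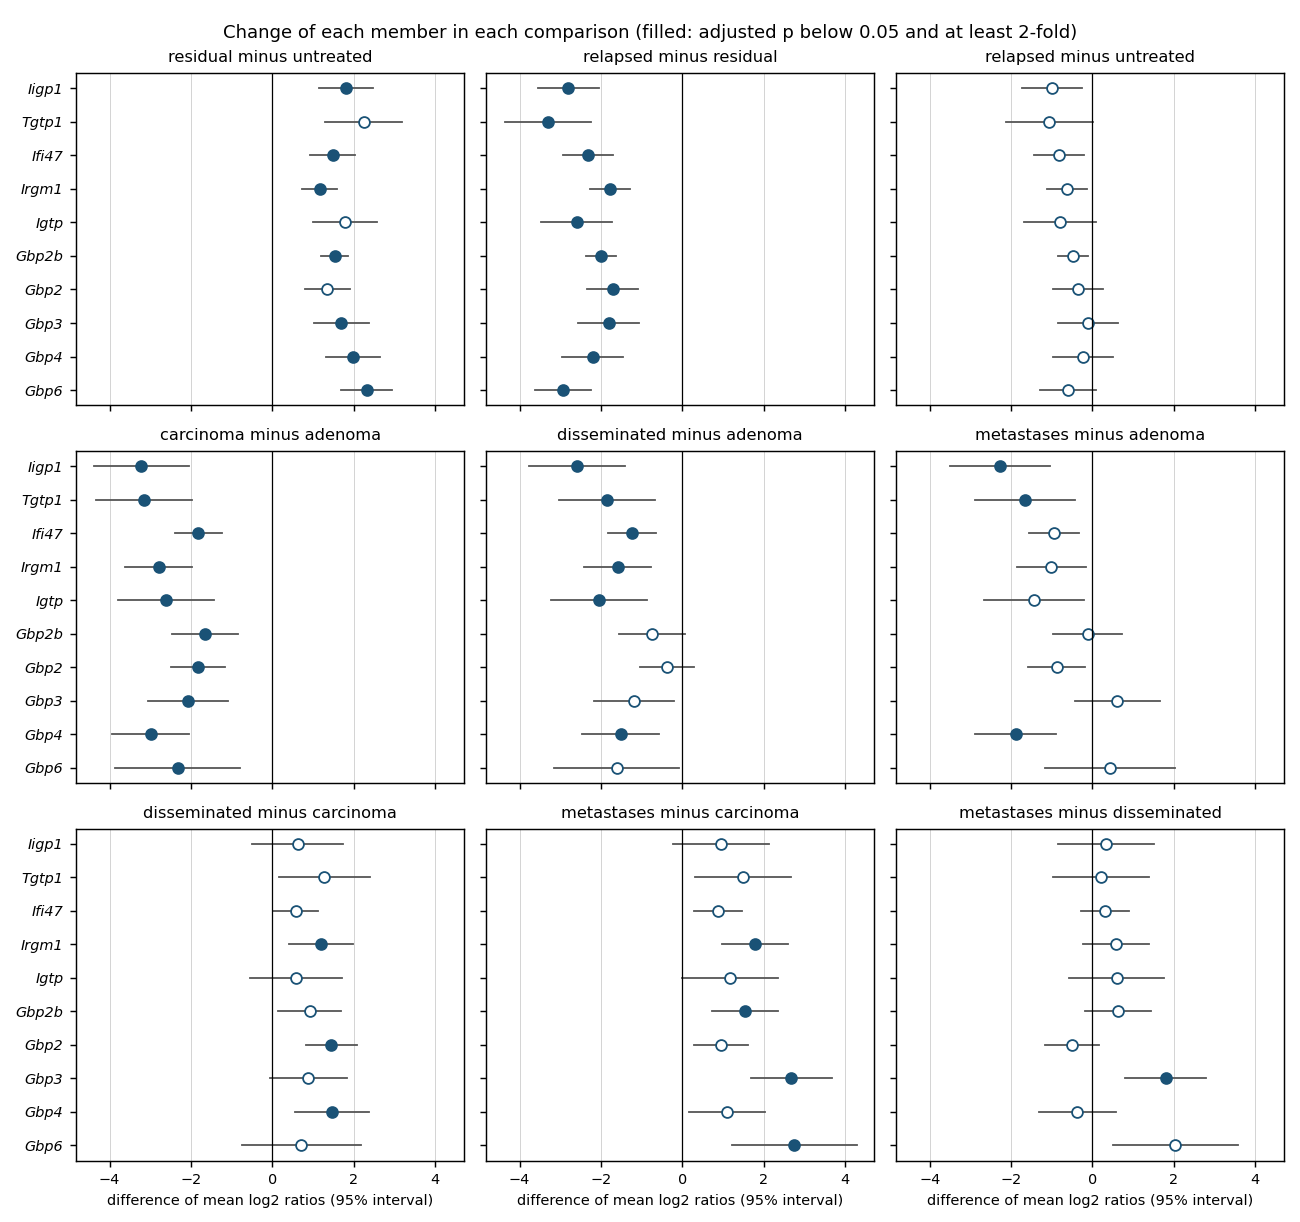
Difference of mean log2 ratios (x axis) with its 95% interval for each member (y axis) in the 9 comparisons, filled where the adjusted p was below 0.05 and the change at least 2-fold. All 10 members are filled for relapsed minus residual tumors and for carcinomas minus adenomas, and none for relapsed minus untreated tumors.

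The members varied together across arrays. Over the 16 chemotherapy arrays the 45 pairs of members had Pearson correlations of 0.76 (Gbp3 and Tgtp1) to 0.98 (Iigp1 and Irgm1) with a median of 0.93, and of 0.11 to 0.89 with a median of 0.71 after group means were removed. Over the 22 progression arrays the range was 0.57 (Gbp2 and Gbp3) to 0.95 (Igtp and Tgtp1) with a median of 0.82, and 0.53 to 0.94 with a median of 0.74 after removal. The points share arrays, slides and the reference, and these values are descriptions. Among genes well above background on every array, those whose pattern was most like the mean of the members included, in the chemotherapy experiment, Gbp9 (r = 0.98), Irgm2 (0.97), H2-Bl (0.96) and B2m (0.95). In the progression experiment they included Erap1 (r = 0.89), Oasl2 (0.86), Psmb9 (0.85) and Irgm2 (0.84). Irgm2 was in both sets. Erap1 trims peptides for MHC class I molecules, Psmb9 is an immunoproteasome subunit and Oasl2 an oligoadenylate synthetase-like protein.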

How the data were processed

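The authors deposited, per the file headers, the scanner's spot intensities (mean signal and median local background per channel, Agilent Feature Extraction 10.7) of 38 two-color arrays without normalization, 16 in the chemotherapy and 22 in the progression experiment. A second deposited table holds each array's log2 ratio per probe, background-corrected with normexp and normalized within arrays (loess) and between arrays (quantile) per the study's methods, which served as an alternative. Of the 45018 spots of an array, 43379 were not controls. Group medians of the share of spots well above background in the sample channel were 54.4 to 58.6% in the chemotherapy groups and 61.6 to 74.6% in the progression groups, and the number of arrays limits the precision.

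From the intensities, background was corrected with normexp (offset 50, not stated in the sources used here), outlier spots were left out, and ratios were normalized by loess within arrays, then by quantiles over each experiment. Repeat spots of 1 probe were averaged. Tools were limma 3.58.1 and statmod 1.5.0 under R 4.3.3, with data.table in version 1.17.8. Of 41174 probes, 22951 were named through accession numbers of RefSeq genes and 18223 kept their name in the files. Each experiment had 1 limma model over all its groups, with no covariate and with Benjamini-Hochberg adjustment over 28785 genes, and calls required an adjusted p below 0.05 and a 2-fold change. In simulated data with known changes the limma fit recovered 92.5% of genes changed by a log2 value of 1.5 in a residual against untreated comparison. In a carcinoma against adenoma comparison it recovered 88.1%, and 2 and 4 of 28585 unchanged genes were called. Independent noise was added to normalized values, so normalization and array effects shared by genes were not exercised. In the residual simulation 67 genes were changed by 1.5 alone, whereas 27 were called in the real comparison, so this recovery may not hold there.

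The alternatives were a normexp offset of 0, the scanner's processed signals, outlier spots kept, median centring, between arrays Aquantile or no normalization, the authors' ratios, dim probes left out, the mean of a gene's probes, every probe tested, a slide block (fixed, then random), a replicate block, a model of only the groups compared, an equal-variance test, no minimum fold and each replicate left out in turn. Named were all 10 members, of the other lists the called genes (at most 5 a comparison where more were called, by size) with Irf1, Ifng, Ifngr1 and Ifngr2, and the 5 genes most like the members' mean in each experiment, apart from genes that are not reported here. Further called genes of these lists and the T and NK cell markers were named after their values were seen. The members, lists and tests were chosen with earlier results of these data known. Protein and probe sequences were not used here.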

Additional observations from a re-analysis of the deposited data

Results flagged for a closer look

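Of 70 groups of 4 to 6 values (10 members in 7 groups), 4 held a sample that stood apart from the rest by Dixon's criterion, which chance meets in about 1 of 20 groups. Gbp3 in relapsed replicate 1 was 1.46, with the nearest relapsed tumor at 3.02, so the gap took 0.932 of the group's range. Igtp in residual replicate 3 was 6.05, with the nearest at 5.07 (0.629 of the range). Gbp3 in metastases replicate 2 was 3.21, with the nearest at 4.97 (0.717), and Gbp6 in adenoma replicate 3 was 1.37, with the nearest at 3.64 (0.779).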

How the results depend on the processing

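The counts of members called (7, 10, 0, 10, 6, 3, 3, 4 and 1 in the order residual minus untreated, relapsed minus residual, relapsed minus untreated, carcinoma minus adenoma, disseminated minus adenoma, metastases minus adenoma, disseminated minus carcinoma, metastases minus carcinoma and metastases minus disseminated) moved by over 1.5 times as follows. Residual minus untreated gave 3 calls at normexp offset 0, 2 from the scanner's processed signals, 1 under a fixed slide block and 2 under the replicate block. Disseminated minus adenoma gave 3 with Aquantile and 3 with no normalization between arrays. The equal-variance test was run only for metastases minus adenoma, where it gave 0, and for disseminated minus carcinoma. Metastases minus disseminated gave 2 with the replicate block and 0 with only the groups compared. The cause was not tested. Leaving out single replicates gave 2 to 10, 6 to 10, 0 to 0, 9 to 10, 4 to 7, 2 to 7, 2 to 4, 4 to 8 and 0 to 2 calls in the same order.

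The replicate numbers in the labels were not taken as pairs, since deviations of samples with the same number correlated at -0.41 to 0.42 and in no comparison were all above 0.1. With the replicate block the counts were 2, 8, 0, 10, 7, 4, 3, 6 and 2. Of the values for single members under alternatives other than left-out replicates, 1241 kept direction and side of the threshold, 54 no longer passed, 33 newly passed and 2 reversed. Both reversals were Gbp2b in metastases minus adenoma, at 0.19 with Aquantile and 0.19 with no normalization between arrays. With single replicates left out 10 reversed, in 4 differences that were not called: Gbp3 in relapsed minus untreated (range -0.26 to 0.30), Gbp2b (-0.37 to 0.15) and Gbp6 (-0.12 to 0.85) in metastases minus adenoma, and Tgtp1 in metastases minus disseminated (-0.10 to 0.73). Called differences that moved by over 1.5 times were also, with processed signals, Gbp2b in carcinoma minus adenoma (-2.53), Gbp4 in metastases minus adenoma (-2.64) and disseminated minus carcinoma (2.83), and Gbp2b (2.35) and Gbp6 (3.35) in metastases minus carcinoma. With the mean of a gene's probes they were Tgtp1 in relapsed minus residual (-2.21), disseminated minus adenoma (-1.18) and metastases minus adenoma (-1.06). Irgm1 in disseminated minus adenoma also moved (-0.95, no longer called), its mean taking in the probe matched by name alone. With normexp offset 0 such differences were Gbp2b (-2.60) and Gbp4 (-2.81) in relapsed minus residual, and with a fixed slide block Iigp1 there (-3.40). Slide as a fixed block could not be fitted for carcinoma minus adenoma and the other comparisons of groups on separate slides.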
